A study of Homo sapiens with 6 samples.

Results

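The E2 ubiquitin-conjugating enzyme genes were followed in RNA sequencing of MG63 cells, an established human osteosarcoma line of mesenchymal, fibroblast-like character. Lines with lasting knockdown of FTO by short hairpin RNA (shFTO) were set against control-hairpin lines (shNC), with 3 biological replicates in each group. Both groups are thus hairpin-carrying MG63 cells, and whether a line is 1 clone or a pool is not given in the sources used here. FTO encodes a demethylase of N6-methyladenosine in RNA, and the design asks which transcripts depend on it. Members were all genes whose symbol is UBE2 followed by letters and, in some, a number, leaving out pseudogenes. This gave 35 of 61806 genes listed.

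E2 enzymes stand in the middle of the ubiquitin cascade. An E1 enzyme activates ubiquitin, passes it to a cysteine of the E2, and an E3 ligase brings the loaded E2 to the protein that will be marked. The E2 often decides whether a first ubiquitin is added or a chain is built, and through which lysine. Some E2s carry other modifiers, such as SUMO or NEDD8, and some relatives have lost the cysteine and act only as partners.

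Expression was deposited as FPKM, reads scaled by exonic length and by the size of the library, and integer read numbers were worked back from it. Values after ± are the SD over the 3 libraries of a group, and FPKM values are in the order of the replicate numbers. The recovered reads, which are those assigned to listed genes, came to between 93629 and 106245 per library, so the depth over genes was low. Reads assigned to no gene are not in these totals. Reads were spread unevenly over genes: ACTB and GAPDH averaged 12.5 and 14.7 per library, EIF4G2 and HNRNPA3 8595 and 3474. Why was not tested, so member levels and shares below describe these libraries and may not stand for levels in the cells. FTO itself was listed at 0 FPKM in all 6 libraries, which allows up to 0.486 FPKM in shNC and 0.462 FPKM in shFTO at 3 reads over the libraries of a group. The knockdown could therefore not be checked on the targeted gene. Of 12 mesenchymal and bone lineage markers 8 had reads, COL1A1, SPARC and FN1 the most, with 139, 121 and 105. The bone genes ALPL, BGLAP, SPP1 and IBSP were listed at 0. The marker lists of blood cells (0 of 6 genes), epithelium (2 of 6) and endothelium (1 of 4) had 0, 8 and 1 reads over the 6 libraries. Per 100000 reads, the lineage markers summed to 76.9 to 97 in shNC and 95.1 to 103.1 in shFTO. The epithelial list summed to 0 to 1.1 in shNC and 0 to 3.8 in shFTO, all of it KRT8 and KRT18, with EPCAM and CDH1 at 0, and its part in any result was not tested.

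A few members held most of the E2 reads. Reads were found for 27 of the 35 members, and 15 averaged 10 or more reads per library, called read-rich here. Those 15 held 25631 of the 25707 E2 reads, while 12 others shared 76 reads and 8 were listed at 0. UBE2D3, UBE2N and UBE2D2 alone held 82% of E2 reads. The sequence around the catalytic cysteine is shown for the UBE2D set because these genes encode near-identical enzymes, yet UBE2D3 and UBE2D2 carried all the reads of the set and UBE2D1 and UBE2D4 had none. The windows are 60 coding bases from GENCODE release 29 on GRCh38, and the capitals mark the codon of the cysteine that holds ubiquitin. The last line is UBE2D3P1, a processed pseudogene on the minus strand of chromosome 20, aligned to the same bases.
UBE2D3: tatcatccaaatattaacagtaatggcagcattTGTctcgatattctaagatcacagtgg
UBE2D2: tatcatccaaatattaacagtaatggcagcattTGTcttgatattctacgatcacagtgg
UBE2D1: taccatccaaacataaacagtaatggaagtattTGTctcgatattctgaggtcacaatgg
UBE2D4: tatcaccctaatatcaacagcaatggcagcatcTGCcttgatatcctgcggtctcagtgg
UBE2D3P1: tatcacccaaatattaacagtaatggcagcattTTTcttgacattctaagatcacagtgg

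The UBE2D3 window lies in exon 6 of the 8 exons of the transcript used, at chr4:102801479-102801538 on the minus strand. The UBE2D2 window is at chr5:139614882-139614941, that of UBE2D1 at chr10:58364792-58364851 and that of UBE2D4 at chr7:43948653-43948712, all 3 on the plus strand and in exon 5 of 7. Against UBE2D3 the windows differed at 2 bases in UBE2D2, 8 in UBE2D1 and 12 in UBE2D4. Over the whole coding sequence of 444 bases, UBE2D3 was identical to UBE2D2 at 86.5% of bases, to UBE2D1 at 78.4% and to UBE2D4 at 77%. The longest identical stretch was 80 bases with UBE2D2, 17 with UBE2D1 and 12 with UBE2D4. The pseudogene window, at chr20:5292553-5292612, differed at 4 bases, and 1 of these was the substitution G254T in the cysteine codon, with positions counted from 1 at the first base of the UBE2D3 start codon. UBE2D3P1 was identical to the UBE2D3 coding sequence at 97.3% of bases, with a longest identical stretch of 95 bases, so reads of these copies can be confused and are uncertain.

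UBE2D3 (ENSG00000109332, chr4:102794383-102868896, minus strand), a broadly acting E2 that starts ubiquitin chains with many RING ligases, was the most abundant member. It stood at 2167, 2232 and 2125 FPKM in shNC replicates 1, 2 and 3 and at 2147, 2497 and 2223 FPKM in shFTO replicates 1, 2 and 3. The groups overlapped, and shFTO replicate 2 lay above all other libraries. With 13277 reads, 2.24% of all reads, UBE2D3 ranked 7th among all genes. Means were 2175 ± 54 FPKM in shNC and 2289 ± 184.4 in shFTO, a log2 fold change of 0.07 (SE 0.07, limma adjusted p = 0.772). The 95% interval of that change ran from 0.959-fold to 1.15-fold. UBE2D2 (chr5:139526431-139628434, plus strand), its nearest relative, had 1643, 1587 and 1509 FPKM in shNC and 1527, 1612 and 1505 in shFTO, a log2 fold change of -0.03 (SE 0.07, limma adjusted p = 0.922). Its groups overlapped throughout, with the interval from 0.886-fold to 1.08-fold.

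UBE2D1 and UBE2D4, which encode the other enzymes of the set, were listed at 0 in all 6 libraries. At 3 reads over the 6 libraries they could reach 1.45 and 1.07 FPKM. The mean of UBE2D3 was thus at least 1539-fold above UBE2D1 per kilobase of exon. These limits cover counting error only. UBE2D3 made up 56.9% to 58.5% of the summed FPKM of the set in shNC and 58.4% to 60.8% in shFTO, with UBE2D2 holding the rest. UBE2D3P1 had 88 reads in all, or 239, 513 and 361 FPKM in shNC and 424, 192 and 261 in shFTO (limma log2 fold change -0.35, adjusted p = 0.816). It was the one family pseudogene with more than a few reads: of 53 UBE2 pseudogenes 3 had any, 92 reads together. The readthrough, antisense and divergent loci with UBE2 in the name, together with UBE2Q2L, came to 10, of which 0 had reads.

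**Figure D1:**
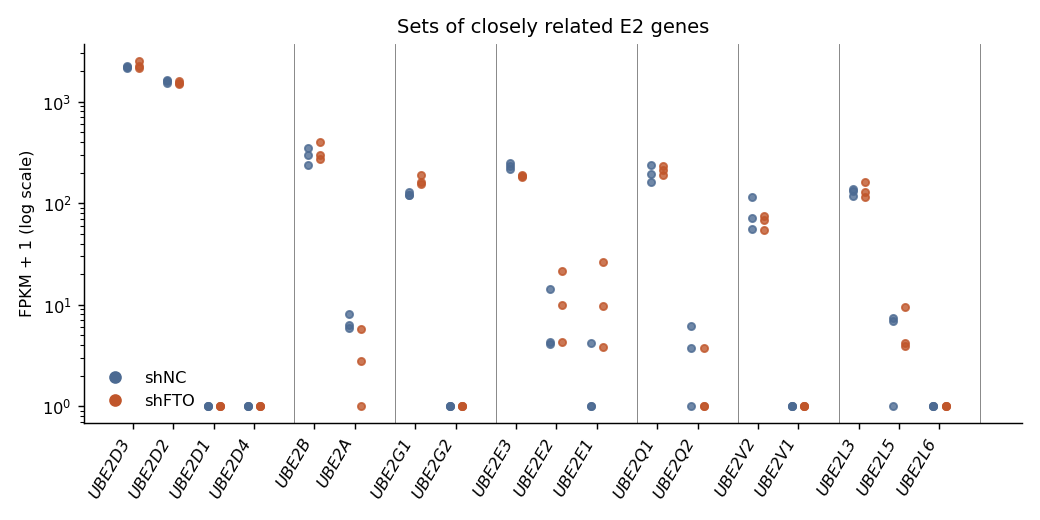
FPKM plus 1 on a log axis for sets of closely related E2 genes, with 1 point for each of the 3 shNC (blue, left) and 3 shFTO (orange, right) libraries. In each of the 7 sets 1 or 2 genes stand far above the rest, and genes at the bottom line, such as UBE2D1 and UBE2D4, were listed at 0; the UBE2J pair, with 4 reads in all, is not drawn.

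In 6 other sets of related members that had more than a few reads, 1 gene held 92.4% to 100% of the set's reads; UBE2J1 and UBE2J2, with 4 reads together, could not be judged. UBE2A and UBE2B encode twin E2s that mark PCNA in damage tolerance and histone H2B. Their 459-base coding sequences were 80.4% identical, and UBE2B held 97.8% of the pair's 638 reads (Wilson 95% interval 96.4% to 98.7%, counting error only). UBE2B had 296, 239 and 352 FPKM in shNC and 398, 272 and 295 in shFTO, groups that overlapped (limma log2 fold change 0.12, SE 0.16, adjusted p = 0.806). UBE2A had 7.07, 4.95 and 5.34 FPKM in shNC and 4.71, 1.77 and 0 in shFTO, from 10 and 4 reads. Its groups did not overlap, but the log2 fold change of -1.42 carried an SE of 0.95 (limma unadjusted p = 0.145, adjusted p = 0.772).
The codon of the active cysteine is shown for this pair and for UBE2N because UBE2A lay far below its twin, and UBE2N was among the 3 most-read members. Windows and capitals are as above, and the UBE2A and UBE2B windows differed at 10 bases.
UBE2B: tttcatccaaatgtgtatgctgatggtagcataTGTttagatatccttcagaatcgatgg
UBE2A: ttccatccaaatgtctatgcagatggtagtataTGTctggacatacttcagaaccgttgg
UBE2N: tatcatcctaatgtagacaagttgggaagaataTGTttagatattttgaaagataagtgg

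Each of these windows crosses an exon border. UBE2B lies on the plus strand at chr5:134380796-134380808 in exon 4 and chr5:134388325-134388371 in exon 5. UBE2A lies on the plus strand at chrX:119581584-119581596 in exon 4 and chrX:119582588-119582634 in exon 5. UBE2N lies on the minus strand at chr12:93411053-93411104 in exon 2 and chr12:93410867-93410874 in exon 3.

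UBE2N encodes the E2 that builds lysine 63 chains, used in signalling and DNA repair, and needs a cysteine-free partner, UBE2V1 or UBE2V2. UBE2N (chr12:93405673-93441947, minus strand) had 1123, 1136 and 1040 FPKM in shNC and 1138, 1135 and 1153 in shFTO. The groups overlapped narrowly, with replicate 2 of both groups side by side, and the log2 fold change was 0.06 (SE 0.08, limma adjusted p = 0.837). UBE2V2 had 114, 70.6 and 55.1 FPKM in shNC and 72.8, 67.7 and 52.8 in shFTO. The estimate of -0.25 (SE 0.27, limma adjusted p = 0.772) came with 1 high library, shNC replicate 1, and without it the estimate was 0.03. UBE2V1 was listed at 0 throughout, up to 1.06 FPKM at 3 reads. On the same strand it overlaps the readthrough gene PEDS1-UBE2V1, also at 0; whether reads falling in both were dropped in counting was not tested.

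Among E2s linked to lysine 48 chains, the signal for the proteasome, the groups were apart for UBE2G1, without passing the adjusted threshold, and overlapped for UBE2K and UBE2R2. UBE2G1 (chr17:4269259-4366675, minus strand), which works with cullin-RING ligases and in the removal of endoplasmic reticulum proteins, had 118, 127 and 119 FPKM in shNC and 154, 188 and 160 in shFTO. Every shFTO library lay above every shNC library. Means were 121 ± 5.25 and 167 ± 18 FPKM, from 161 and 232 reads, and the log2 fold change was 0.46 (SE 0.19, limma unadjusted p = 0.0217, adjusted p = 0.772). Its relative UBE2G2, the partner of membrane ligases in that removal, was listed at 0, up to 0.703 FPKM. UBE2K, which can build such chains alone, had 248, 220 and 194 FPKM in shNC and 205, 191 and 237 in shFTO (limma log2 fold change -0.06, SE 0.16). UBE2R2, a close relative of the cullin E2 CDC34, had 42.6, 42 and 33.4 FPKM in shNC and 48.4, 21.4 and 41 in shFTO (limma log2 fold change -0.16, SE 0.35). Both overlapped between groups. CDC34 had 4 reads in all.

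UBE2M had the smallest unadjusted p of the members in limma on FPKM, though not in the fits to reads. It encodes the E2 for NEDD8, the modifier that switches on cullin-RING ligases. UBE2M (ENSG00000130725, chr19:58555712-58558954, minus strand) had 268, 290 and 214 FPKM in shNC and 356, 378 and 327 in shFTO. All shFTO libraries were above all shNC libraries, with means of 257 ± 38.7 and 354 ± 25.6 FPKM from 130 and 187 reads. Limma gave a log2 fold change of 0.47 (SE 0.15, unadjusted p = 0.0028), and over 4932 genes the adjusted p was 0.624. In limma-voom its unadjusted p was 0.0472, above that of UBE2E1 (0.00623), and in the quasi-Poisson fit 0.0404, above that of UBE2Z (0.0184). Mean FPKM was 37.6% higher, and the 95% limma interval ran from 1.13-fold to 1.7-fold, or 0.17 to 0.76 in log2. The fits to reads gave wider log2 intervals, 0.01 to 0.91 in limma-voom and 0.02 to 0.89 in the quasi-Poisson fit. Like UBE2M itself, the other genes of the NEDD8 route gave no call. UBA3, the catalytic subunit of the NEDD8 E1, stood at 472 ± 28.6 FPKM in shNC against 457 ± 78.1 in shFTO. Its partner NAE1 stood at 32.6 ± 17.1 and 25.3 ± 3.76 FPKM. UBE2F, the second NEDD8 E2, had 3 reads and NEDD8 itself was listed at 0. On the same strand UBE2F overlaps the readthrough gene UBE2F-SCLY, which was listed at 0. Whether reads falling in both were dropped in counting was not tested.

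UBE2L6, the E2 for the interferon-induced modifier ISG15, was listed at 0. UBE2L3, which serves HECT and RING-between-RING ligases, had 132, 115 and 135 FPKM in shNC and 126, 162 and 115 in shFTO, overlapping groups (limma log2 fold change 0.06, SE 0.2). Its copy UBE2L5 had 9 reads, and since the coding sequences were 97.6% identical those reads are uncertain.

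UBE2E3 and UBE2Z were lower in every shFTO library than in any shNC library. UBE2E3 (chr2:180967248-181076585, plus strand), an E2 with a long N-terminal extension, had 214, 230 and 248 FPKM in shNC and 187, 182 and 179 in shFTO. Means were 230.5 ± 17 and 183 ± 4 FPKM from 198 and 165 reads, a log2 fold change of -0.33 (SE 0.16, limma unadjusted p = 0.0484, adjusted p = 0.772). In the fits to reads the unadjusted p of UBE2E3 was higher, 0.12 in limma-voom and 0.0995 in the quasi-Poisson fit. UBE2Z (chr17:48908407-48929056, plus strand), the E2 charged by UBA6 rather than by UBA1, had 81.6, 111 and 123 FPKM in shNC and 80.7, 72.5 and 64.3 in shFTO. The gap was small, since shNC replicate 1 and shFTO replicate 1 lay side by side. Means were 105 ± 21.4 and 72.5 ± 8.22 FPKM from 174 and 126 reads, a log2 fold change of -0.52 (SE 0.24, limma unadjusted p = 0.0369, adjusted p = 0.772). UBA6 had 1 read.

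**Figure D2:**
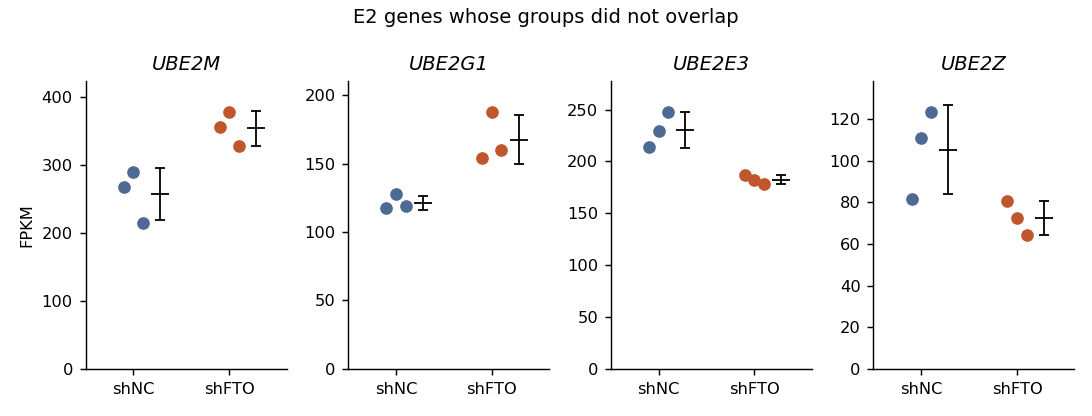
FPKM of the 4 read-rich E2 genes whose groups did not overlap, with 1 point per library (3 shNC in blue, 3 shFTO in orange) and the mean with SD beside them, on axes from 0. UBE2M and UBE2G1 were higher and UBE2E3 and UBE2Z lower in all 3 shFTO libraries, and none passed the adjusted threshold.

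Within the UBE2E set, UBE2E3 held 92.4% of 393 reads (Wilson 95% interval 89.3% to 94.6%). Its share of the set's FPKM ran from 94.9% to 98.7% in shNC and from 86.4% to 91% in shFTO. That share also moved with UBE2E1, which had 1 read in shNC and 12 in shFTO. Of those 12 reads 8 were in shFTO replicate 2, with 1 and 3 in replicates 1 and 3, and the groups overlapped (limma log2 fold change 2.62, SE 1, unadjusted p = 0.0125, adjusted p = 0.772). UBE2E2 had 6 and 11 reads.

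Of the members, 11 overlap another gene on the same strand, and 0 of those other genes had reads. On the opposite strand UBE2A overlaps STEEP1 and NKRF, UBE2S overlaps RPL28 and UBE2N overlaps NUDT4, which had 1, 3, 9 and 8 reads. Reads of such pairs cannot be told apart unless the counting used strand.

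The remaining read-rich members overlapped between groups. UBE2Q1, of a subfamily with a long N-terminal part, had 162, 234 and 194 FPKM in shNC and 186, 211 and 231 in shFTO, and held 99.2% of its pair's reads against 4 reads of UBE2Q2. UBE2W, which can attach ubiquitin to the start of a protein, had 114, 107 and 106 FPKM in shNC and 90.1, 125 and 104 in shFTO. UBE2H, the E2 of the CTLH ligase, had 19.5, 25.8 and 41 FPKM in shNC and 33.2, 34.3 and 16.3 in shFTO. Their limma log2 fold changes were 0.10 (SE 0.17), -0.04 (SE 0.22) and -0.05 (SE 0.4). The groups overlapped for all 3.

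**Figure D3:**
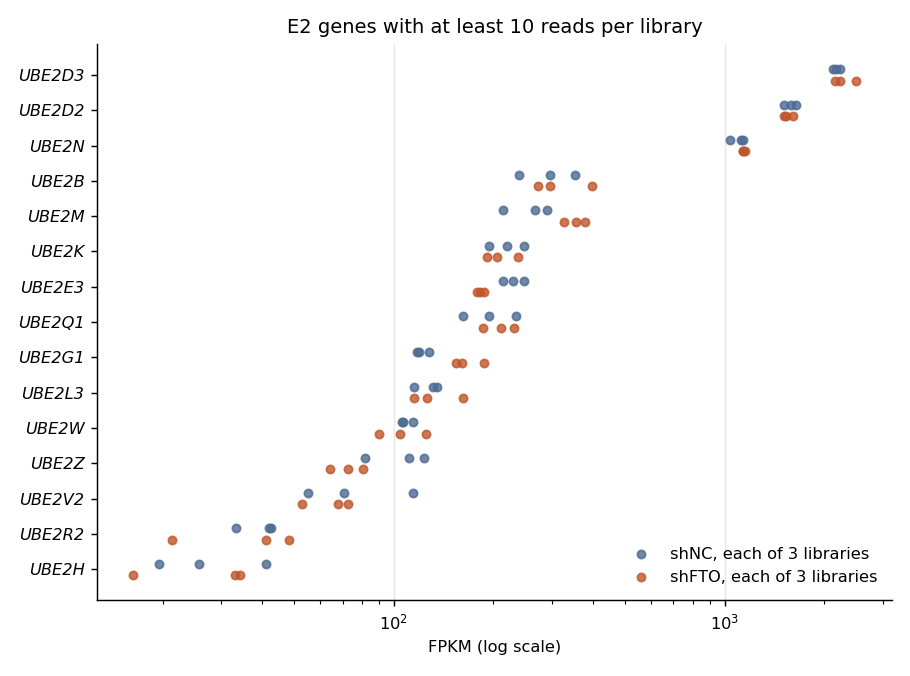
FPKM on a log axis for the 15 E2 genes with at least 10 reads per library, with 1 point for each of 3 shNC (blue) and 3 shFTO (orange) libraries. UBE2D3, UBE2D2 and UBE2N stand above the other 12 genes in every library, and none of those 12 exceeds 398.4 FPKM.

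E2s of the cell cycle and of endoplasmic reticulum membranes were almost without reads. UBE2C and UBE2S, which start and lengthen chains for the anaphase-promoting complex, had 1 and 2 reads. The membrane-anchored UBE2J1 and UBE2J2 had 1 and 3 reads, and the large hybrid enzyme UBE2O had 4. UBE2T, the E2 of the Fanconi pathway, was listed at 0, as were UBE2U and UBE2QL1, with limits of 2.62, 2.75 and 0.859 FPKM at 3 reads over the 6 libraries. At this depth a difference in any of these could not be seen.

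In the test of shFTO against shNC, 0 of 26 tested members were called higher and 0 were called lower. Limma on log2(FPKM + 1) called 2 of 4932 genes, or 0.0406%, neither of them an E2 gene. UBE2J1 was not tested, and of the 26 tested members 11 had fewer than 10 reads per library. Estimates were above 0 for 14 and below 0 for 12, with a median log2 fold change of 0.06 beside 0.00 over all tested genes. Over the 15 read-rich members, 7 were above and 8 below 0, with a median of -0.03. The unadjusted p was under 0.05 for 5 of the 26 members, UBE2M, UBE2E1, UBE2G1, UBE2Z and UBE2E3, where 3.85% of all tested genes had such a p. Without shFTO replicate 2 this count was 1. A quasi-Poisson fit to the recovered reads and limma-voom called 0 members each, with 3 of 15 and 4 of 26 at an unadjusted p under 0.05. In the quasi-Poisson fit 5.68% of 1021 genes had such a p, and in limma-voom 5.39% of 4932 genes did, with 0.101% past the adjusted threshold.

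Among the 15 read-rich members the groups did not overlap for 4 (26.7%), 2 higher and 2 lower, where 9.79% of 705 genes of at least that depth did not. In the higher direction the share of all such genes was 5.11%, and in the lower 4.68%. The median absolute log2 fold change of these members was 0.10, beside 0.18 for the 705 genes. For 14 of the 15 the 95% limma interval left out a 2-fold change, UBE2Z being the exception, where this held for 60.9% of the 705 genes. For 8 it also left out a 1.5-fold change, beside 27.8%. The members and the 705 genes were not matched on depth, and both interval width and size of change fall as reads rise. These medians and interval shares therefore do not show that E2 genes were steadier than others.

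**Figure D4:**
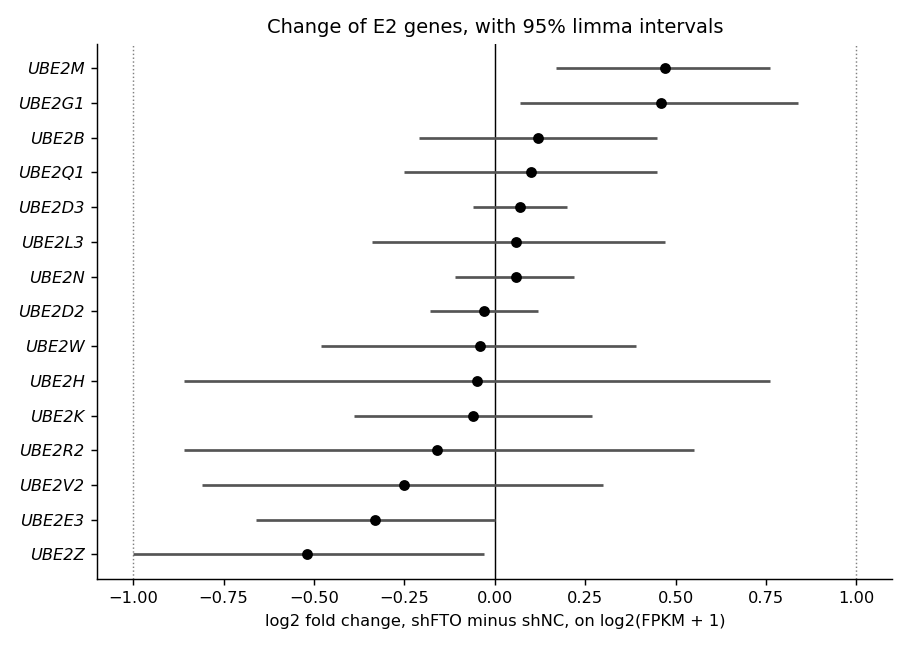
Limma log2 fold change of shFTO minus shNC for the 15 read-rich E2 genes, with 95% intervals as lines and a 2-fold change as dotted lines. Estimates ran from -0.52 for UBE2Z to 0.47 for UBE2M, and the most abundant genes UBE2D3, UBE2D2 and UBE2N had the narrowest intervals.

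**Figure D5:**
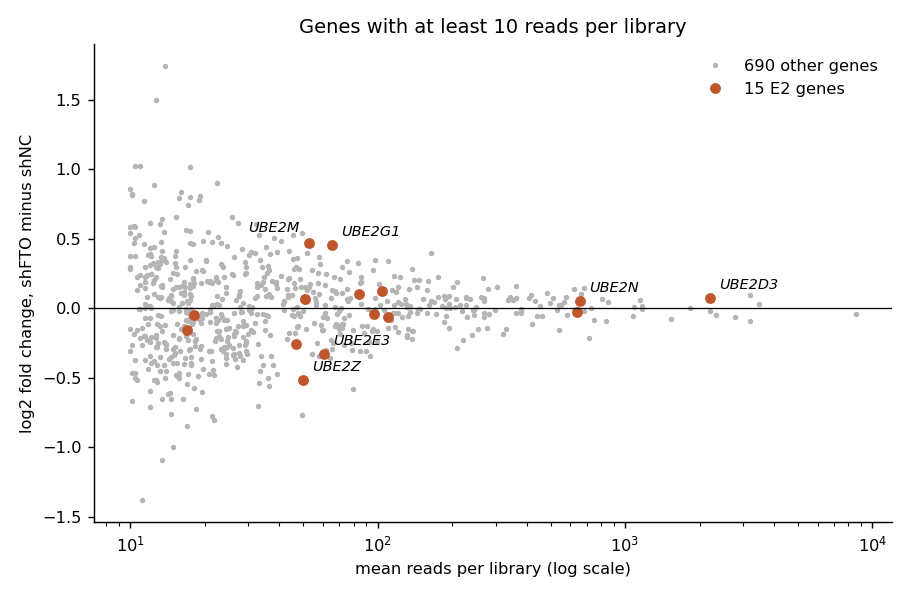
Limma log2 fold change against mean reads per library on a log axis, for the genes (grey) and the 15 E2 genes (orange) with at least 10 reads per library. The spread narrows as reads rise, and UBE2M, UBE2G1 and UBE2Z lie toward its edges at their depth.

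As a family, E2 genes took 4271 ± 103 of 100000 reads in shNC and 4406 ± 213 in shFTO. The library values were 4313, 4347 and 4154 in shNC and 4264, 4651 and 4304 in shFTO, so the groups overlapped and shFTO replicate 2 was highest. Without UBE2D3 the values were 2136, 2105 and 2020 in shNC and 2107, 2143 and 2071 in shFTO, where shFTO replicate 2 was still highest but close to shNC replicate 1. Without UBE2D3, UBE2D2 and UBE2N the remaining 32 members had 775 ± 7.73 and 783 ± 21.1. The spread of reads between libraries of a group, as variance over the mean, ran from 0.19 for UBE2E3 to 8 for UBE2D3, with a median of 1.41 over the 15 members. A value of 1 is what counting alone gives. Of the members, 5 were below 1 and 3, UBE2D3, UBE2B and UBE2V2, were above 4.

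Read-rich members had longer 3' untranslated regions than the other members and a similar coding length, by their medians and with no test. In the longest protein-coding transcript of each gene, the median 3' untranslated region was 3029 bases in the 15 read-rich members and 1556 bases in the other 20. Over all protein-coding genes it was 2195 bases in 673 with at least 10 reads per library and 963.5 in the others. Median coding length was 543 and 535.5 bases in the 2 sets of members, and median GC content 46.4% and 43.7%. These are descriptions of the annotation. The sets were split by read number, which is not scaled by length, so transcript length can enter the split itself. Its part in the difference was not tested.

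In the lists of E2 partner genes 0 genes were called. Of 10 E1 genes 7 had reads and 6 were tested (median log2 fold change -0.23); UBA3 held 1134 of 1247 reads, while UBA1, the main ubiquitin E1, had 14. Of 19 ubiquitin and ubiquitin-like genes 14 had reads and were tested (median 0.13), and the ubiquitin gene UBB had 12 reads. SUMO2, a ubiquitin-like modifier, had 408 reads. GABARAPL2, a modifier of autophagy, had 47.1 ± 11 and 35 ± 0.528 FPKM. Of 8 other genes with an E2 fold 5 were tested (median 0.56), among them BIRC6, a giant E2 and E3 hybrid, at 39.5 ± 5.27 and 32.9 ± 1.91 FPKM, and ATG3, the E2 of autophagy, at 6.18 ± 1.66 and 10.6 ± 6.21. That median is the estimate of CDC34, from 4 reads, so it says little about the list. BIRC6 held 396 of the list's 439 reads, with a limma log2 fold change of -0.25.

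Among E3 ligases the HECT and RING-between-RING list had the most reads, 6128. Of its 28 genes 14 were tested (median 0.04). HUWE1, a giant HECT ligase, had 292 ± 36 and 306 ± 16.1 FPKM, and ARIH1, which works with UBE2L3 at neddylated cullins, had 109 ± 12 and 108 ± 9.77. Of 62 RING ligases 31 were tested (median -0.12), with RNF10 at 135 ± 8.03 and 155.5 ± 32.5 FPKM and RNF11 at 100.2 ± 22.9 and 100.3 ± 26.4. Of 29 cullin-RING core genes 17 were tested (median -0.01). Here CUL3, a scaffold, had 45.6 ± 6.47 and 56.8 ± 3.95 FPKM, and the neddylation cofactors DCUN1D5 and DCUN1D1 had 70.8 ± 12.6 and 70 ± 6.64, and 53.5 ± 21.4 and 35.5 ± 5.86. RNF7, the RING subunit that pairs with UBE2F, had an unadjusted p of 0.0453 in limma (24.3 ± 9.55 and 11.7 ± 4.8 FPKM, adjusted p = 0.772, 33 reads). Of 17 anaphase-promoting complex genes 9 were tested (median 0.17), and ANAPC5 held 234 of 284 reads.

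Enzymes that remove the modifiers gave the same count. Of 54 deubiquitinase genes 29 were tested (median 0.03), led by PSMD14, the deubiquitinase of the proteasome lid, at 130.5 ± 13.1 and 119 ± 9.41 FPKM, and by USP34 and USP9X with 219 and 172 reads. USP22, a histone deubiquitinase, was listed at 0 in shNC and had 4.43 ± 1.73 FPKM in shFTO from 9 reads (limma unadjusted p = 0.0248, adjusted p = 0.772). It passed the filter of 1 FPKM only through shFTO, which set the sign of its change in advance. That p-value is therefore no support for a change. Of 16 SUMO ligases and proteases 8 were tested (median 0.03), and PIAS2 had 22 ± 2.91 and 17.3 ± 3.32 FPKM. Of 10 genes of the COP9 signalosome, which takes NEDD8 off cullins, 7 were tested (median 0.41), and COPS2 had 45.9 ± 12.2 and 60.5 ± 11.6 FPKM. That median is the estimate of COPS2, which held 236 of the list's 292 reads. The estimates above it came from genes with 2 to 4 reads that passed the 1 FPKM filter only through shFTO. UBE2E1, with its reads by library, and CDC34, NEDD8, UBA6, UBB, RNF7, USP22, ACTB, GAPDH, EIF4G2 and HNRNPA3 were named after their values were seen.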

How the data were processed

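Poly(A) RNA of 6 MG63 cultures was made into strand-specific libraries, per the labels. The submitters' processing notes name DESeq2 1.50.2, StringTie 1.3.3b, HTSeq 0.6.1, HISAT2 2.2.1 and FastQC 0.10.1, and the build GRCh38. The deposited values are FPKM per gene, per the file headers, computed by the authors. Whether counting used strand is not given in the sources used here. For scaling, the length used is the deposited exonic length of each gene.

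For each library the total between 20000 and 200000 was sought that turns FPKM multiplied by length into integers, and 100% of values then lay within 0.05 of a whole read. Totals were 93629 to 106245 reads, so intervals are wide for all but the most-read genes. Limma 3.58.1 (R 4.3.3, trend and robust) was fitted to log2(FPKM + 1) of the 4932 genes averaging 1 FPKM or more in either group, with the group as the only term. Calls needed a Benjamini-Hochberg adjusted p under 0.05. Fold changes on this scale understate those of low genes. P-values measure the spread between 3 libraries a group. Each library counted as a replicate, as labelled. Library pairs differed by more than counting (chi-square per degree of freedom from 1.72 to 2.24), which does not test whether they are independent.

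Every member was counted. Values in each library are given for members with at least 10 reads per library and for those with at least 10 reads in all whose groups did not overlap, and from each list of partner genes up to 3 genes with the most reads; further members were named by role, and the report lists the genes named after their values were seen. A few genes that fall under this rule are not reported here. The members and lists were chosen with earlier results of these data known. Alternatives were a pseudocount of 0.1, no filter, at least 10 reads per library, limma-voom, a quasi-Poisson fit (1021 genes with at least 30 reads), median-of-ratios scaling, a replicate block and each library left out. Scripts were tested on simulated data. Sequences came from GENCODE release 29, where all 35 members were found. Python 3.11.15 and SciPy 1.17.1 were used.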

Additional observations from a re-analysis of the deposited data

How the results depend on the processing

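The count of 0 called E2 genes held under every alternative listed above, the 6 fits without 1 library included. The count of genes called over the whole table was 2 as reported and less stable: it was 7 with a pseudocount of 0.1, 9 with no filter, 0 with at least 10 reads per library, 5 in limma-voom and 0 in the quasi-Poisson fit (58 of 1021 at an unadjusted p under 0.05). It ranged from 2 to 9 without 1 library, with 9 without shNC replicate 2, 7 without shNC replicate 3 and 8 without shFTO replicate 1. With the replicate block it was 17, of which 0 were E2 genes. Same-numbered libraries did not visibly deviate together (correlations of -0.003, 0.039 and -0.012). At this depth that cannot decide whether the numbers pair the samples. The median log2 fold change of tested members was -0.029 with at least 10 reads per library and -0.032 in the quasi-Poisson fit, both over 15 members only, and from -0.023 to 0.072 without 1 library. The ratio of the E2 share of reads, shFTO to shNC, was 1.03 and from 1 to 1.05 without 1 library.

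Of 16 members named by rule, 8 kept the sign of their change in every alternative run on them (UBE2A, one of these, had too few reads for the quasi-Poisson fit and for the minimum of 10 reads per library), UBE2M (0.342 to 0.558), UBE2G1 (0.37 to 0.512), UBE2E3 (-0.384 to -0.278) and UBE2Z (-0.688 to -0.393) among them; the ranges are those without 1 library. The other 8 changed sign only where 1 library was left out. Their log2 fold changes then ran from -0.15 to 0.026 for UBE2K, -0.042 to 0.256 for UBE2B, -0.166 to 0.068 for UBE2W, -0.03 to 0.234 for UBE2Q1 and -0.075 to 0.168 for UBE2L3. They ran from -0.485 to 0.033 for UBE2V2, -0.285 to 0.286 for UBE2H and -0.388 to 0.183 for UBE2R2. Depth limits what can be said of the 20 members with fewer than 10 reads per library.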
